A study of Rattus norvegicus with 9 samples.

Results

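A set of 9 immediate early and AP-1 genes was followed in cultured rat sympathetic neurons given BMP-7: Egr1, Fos, Jun, Junb, Jund, Atf3, Dusp1, Klf10 and Nr4a1. The members were all probe sets annotated to one of these genes alone, which gave 23 of the 8740 probe sets tested. Egr1 and Jun had 4 each, Fos, Dusp1 and Klf10 had 3 each, Junb and Nr4a1 had 2 each, and Jund and Atf3 had 1 each. The neurons came from the superior cervical ganglia of Holtzman rats at embryonic day 21 and grew in serum-free medium, after a treatment with Ara-C that removes dividing non-neuronal cells. On day 5 in culture they received medium alone for 24 hr (control), 50 ng/ml recombinant human BMP-7 for 6 hr (BMP6h) or the same BMP-7 for 24 hr (BMP24h). Each condition had 3 arrays, each made from cultures pooled within one of 3 independent dissections. All groups therefore shared the medium and the prior Ara-C. No control of 6 hr was among the arrays, so both BMP groups were set against the same 3 control arrays. The Methods state that RNA of every condition was taken at one time, on day 6 in culture. Values are log2 expression on the Affymetrix Rat Genome U34A array. In pooled cultures, fewer cells of a type and less RNA per cell cannot be told apart.

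Immediate early genes are transcribed within minutes of a stimulus, without new protein synthesis, because their promoters are already loaded with factors such as SRF and CREB that kinases switch on. Many of their products are transcription factors: Fos and Jun proteins pair as AP-1, while Egr1, Klf10 and Nr4a1 bind DNA on their own or with other partners. Others close the loop, as Dusp1 does by removing phosphate from MAP kinases. In sympathetic neurons such genes are known to respond to membrane depolarization and to axon injury, and Klf10 was first described as an early gene induced by TGF-beta.

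The promoters of Dusp1, Egr1, Jund and Nr4a1 are shown because these genes cover the patterns found: a peak at 6 hr, a peak at 24 hr, a lower level at 24 hr, and no difference past a threshold. RefSeq promoters of build GRCr8 were given for 5 of the 9 genes (these 4 and Junb). Each line gives the 250 bases before the start, with CRE cores (TGACG on either strand, bound by CREB and ATF proteins) and CArG boxes (bound by SRF) in capitals.
Dusp1 promoter, chr10:17184603-17184852, strand +: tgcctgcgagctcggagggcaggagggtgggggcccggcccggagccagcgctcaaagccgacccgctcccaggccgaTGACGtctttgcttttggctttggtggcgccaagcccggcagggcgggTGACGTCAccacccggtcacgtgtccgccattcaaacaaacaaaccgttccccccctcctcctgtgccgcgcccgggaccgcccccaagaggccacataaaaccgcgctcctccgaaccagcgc
Egr1 promoter, chr18:26736828-26737077, strand +: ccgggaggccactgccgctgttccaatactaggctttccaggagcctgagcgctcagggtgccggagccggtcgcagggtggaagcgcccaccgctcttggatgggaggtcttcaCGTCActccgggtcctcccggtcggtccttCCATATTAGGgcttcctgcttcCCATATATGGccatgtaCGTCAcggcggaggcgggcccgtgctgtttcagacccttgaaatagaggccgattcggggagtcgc
Jund promoter, chr16:18769772-18770021, strand -: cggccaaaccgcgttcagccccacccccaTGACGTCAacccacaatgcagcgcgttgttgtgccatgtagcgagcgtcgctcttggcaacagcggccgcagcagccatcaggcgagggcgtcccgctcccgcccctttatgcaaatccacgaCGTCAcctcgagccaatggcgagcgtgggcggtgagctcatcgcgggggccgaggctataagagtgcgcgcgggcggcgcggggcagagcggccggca
Nr4a1 promoter, chr7:134259888-134260137, strand +: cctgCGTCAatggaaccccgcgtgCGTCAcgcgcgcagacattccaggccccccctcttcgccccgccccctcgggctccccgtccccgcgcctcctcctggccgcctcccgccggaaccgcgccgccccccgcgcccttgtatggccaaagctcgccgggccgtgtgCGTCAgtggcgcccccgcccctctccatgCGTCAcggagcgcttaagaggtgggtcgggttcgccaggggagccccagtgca

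The Egr1 window held 2 CArG boxes and 2 CRE cores. Among 33469 RefSeq rat promoters of the same length, 1.5% held a CArG box and 0.0209% held 2 or more. The Dusp1 window held 3 CRE cores, of which a pair overlaps to form the full CRE TGACGTCA, and 1 match to GGCGCC, a GC-rich element that Smad proteins can bind. The full CRE was in 1.59% of promoters and GGCGCC in 8.69%. Jund also had 3 CRE cores with a pair forming a full CRE, and 3 matches to the EGR site GCGNGGGCG, which was in 4.29% of promoters. Nr4a1 had 4 CRE cores, 1 EGR site and 1 GGCGCC. A CRE core was in 18.2% of promoters, and 4 or more were in 0.173%. Junb had 1 CRE core. None of the 5 windows held the AP-1 site TGANTCA, which was in 6.34% of promoters. Both strands were searched for every motif. These matches describe the letters of the windows and say nothing about binding.

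For the label of neurons, the enzymes of noradrenaline synthesis Th and Dbh had mean log2 values of 13.41 to 13.49 and 11.94 to 12.18 over the 3 conditions. Markers of glia and of fibroblasts were measured as well, with list means of 7.69 to 7.78 and 9.75 to 10.00. Levels of different probe sets cannot be set against each other, so these values give no purity. The array BMP6h replicate 2 stood apart, where 9.99% of probe sets differed by over 1 log2 unit from the average of its fellow BMP6h arrays. BMP6h replicate 3 had 4.21%, control replicate 3 had 3.84%, and the other 6 arrays had at most 1.09%. The difference between 3′ and 5′ control probe sets, a sign of RNA integrity, overlapped between conditions (0.38 to 0.47 log2 units for Gapdh and 0.53 to 0.79 for actin). The arrays were processed in 2 batches, with replicate 1 of every condition in batch 1.

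One member passed the adjusted test: a Dusp1 probe set at 6 hr. In BMP6h against control 1 of the 23 probe sets had an adjusted p under 0.05 (limma, Benjamini-Hochberg over all probe sets), against a background of 4 of 8740 (0.0458%). In BMP24h against control it was 0 of 23, against 19 (0.217%), and in BMP24h against BMP6h it was 0 of 23, against 0 (0.0%). Unadjusted p values under 0.05 were held by 297 and 259 probe sets of the array in the last pair of comparisons. The looser thresholds used from here on, an unadjusted p under 0.05 together with at least a 1.2-fold difference, are named the unadjusted thresholds. At 6 hr 5 member probe sets were higher and 2 lower than control by these thresholds (21.7% and 8.7% of the 23), beside 0.881% higher and 0.847% lower among all probe sets. At 24 hr 8 were higher and 2 lower than control (34.8% and 8.7%), beside 1.6% and 1.74%. In BMP24h against BMP6h, 3 were higher and 4 lower (13.0% and 17.4%), beside 1.4% and 1.52%. The genes were chosen with results of these arrays known, so these shares describe the genes and do not test them.

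Both directions were present at each time. The median log2 fold change of the 23 probe sets was 0.04 at 6 hr and 0.25 at 24 hr against control, and 0.03 between the times, against -0.02, 0.01 and 0.03 over all probe sets. The median size of the change, without its sign, was 0.38, 0.32 and 0.21, against 0.14, 0.11 and 0.14. The arrays of the compared conditions did not overlap for 9 of the 23 probe sets at 6 hr, 13 at 24 hr and 8 between the times, beside 10.6%, 12.7% and 9.67% of all probe sets. By the F-test across the 3 conditions, 6 member probe sets of 3 genes (Egr1, Dusp1 and Klf10) had a p under 0.005, beside 0.824% of all. A turn, meaning a difference at 6 hr and an opposite one between 6 and 24 hr that each had an unadjusted p under 0.05, was found for 3 of the 23, all of Dusp1, beside 0.263% of all. In these 3 the step between the times was close to that limit, with unadjusted limma p values of 0.0373 to 0.0438. Its adjusted p was 0.939 for each, and its size was 1.24- to 1.45-fold.

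**Figure D1:**
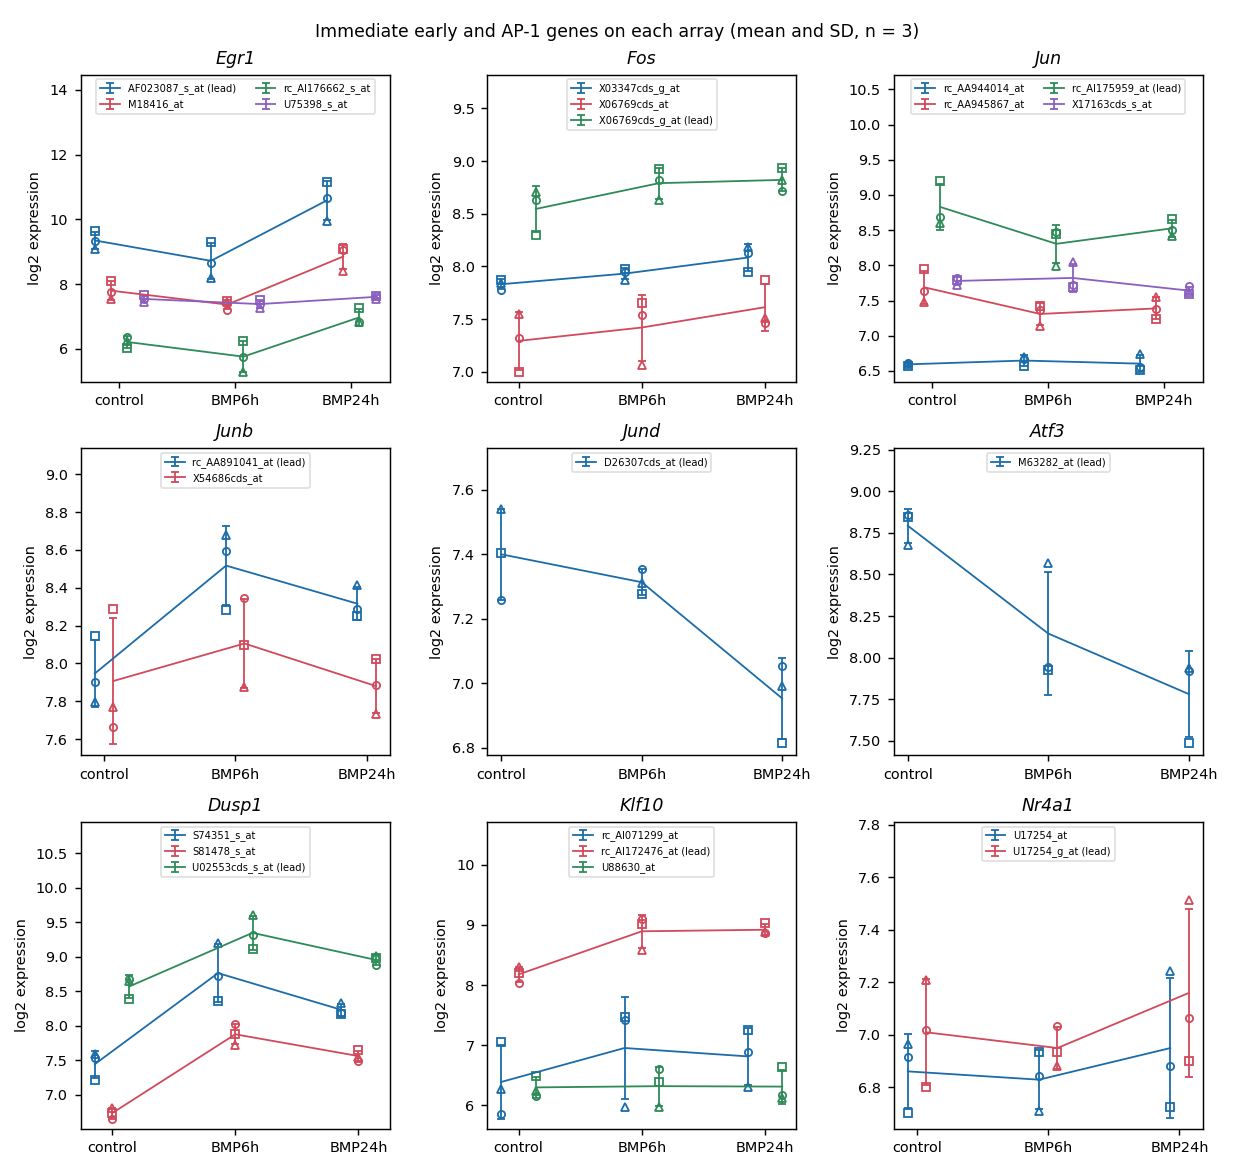
Log2 expression (vertical axis) of each of the 23 probe sets in control, BMP6h and BMP24h arrays, one panel per gene; circles, triangles and squares are replicates 1, 2 and 3, and lines and bars give means and SD (n = 3). The 3 Dusp1 probe sets peak in BMP6h, and Atf3 and Jund are lowest in BMP24h. All 4 Egr1 probe sets have their highest mean in BMP24h, U75398_s_at by only 0.06 over control.

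Dusp1, the phosphatase that inactivates MAP kinases in the nucleus, rose at 6 hr and stood between its 6 hr and control levels at 24 hr. Probe set S81478_s_at read 8.02, 7.72 and 7.88 in BMP6h and 7.49, 7.54 and 7.65 in BMP24h, against 6.65, 6.81 and 6.73 in control. The 3 conditions did not overlap: every BMP6h array was above every BMP24h array, and those were above every control array. Its log2 fold change at 6 hr was 1.14 ± 0.13 (SE), which is 2.21-fold, with an adjusted p of 0.0483. At 24 hr it was 0.83 ± 0.13 with an adjusted p of 0.0775, and between the times -0.32 ± 0.13 with an unadjusted p of 0.0373 and an adjusted p of 0.939. The adjusted call at 6 hr lies close to its threshold. Over the alternatives the adjusted p at 6 hr ranged between 0.00023 and 0.971, and without BMP6h replicate 2 it was 0.0429 at a log2 fold change of 1.23.

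The other Dusp1 probe sets had the same shape. S74351_s_at read 8.72, 9.20 and 8.36 in BMP6h and 8.18, 8.33 and 8.17 in BMP24h, against 7.52, 7.58 and 7.22 in control. Again no array of one condition overlapped another condition. The log2 fold changes were 1.32 ± 0.22 at 6 hr (adjusted p of 0.340), 0.79 ± 0.22 at 24 hr (adjusted p of 0.645) and -0.53 ± 0.22 between the times (unadjusted p of 0.0438). The lead probe set U02553cds_s_at, lead meaning the one with the highest mean over the 9 arrays, read 9.32, 9.61 and 9.11 in BMP6h and 8.87, 9.00 and 8.98 in BMP24h, against 8.68, 8.64 and 8.38 in control. Its BMP24h arrays too were above every control array and below every BMP6h array. Its log2 fold changes of 0.78, 0.39 and -0.39 (SE 0.16) were smaller, with unadjusted p values of 0.00149, 0.0453 and 0.0424. These 3 probe sets read one transcript on the same arrays and are not replicates of each other. In batch 1 alone and in batch 2 alone, each of the 3 had the same signs as in the pooled fit, and for S81478_s_at the difference at 6 hr was 1.37 and 1.03.

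Egr1, a zinc finger transcription factor that rises with growth factors and neuronal activity, ran the opposite way, with values below control at 6 hr and above it at 24 hr. The lead probe set AF023087_s_at read 10.67, 9.95 and 11.14 in BMP24h, against 8.66, 8.20 and 9.31 in BMP6h. In control it read 9.33, 9.09 and 9.64. Every BMP24h array was above every other array, while BMP6h and control overlapped. The log2 fold change between the times was 1.87 ± 0.37, which is 3.65-fold, with an unadjusted p of 0.00119 and an adjusted p of 0.414. Against control the log2 fold change was -0.63 ± 0.37 at 6 hr (unadjusted p of 0.132) and 1.24 ± 0.37 at 24 hr (unadjusted p of 0.0113, adjusted p of 0.734). Without BMP6h replicate 2, the lowest array, the log2 fold change at 6 hr was -0.34. Its adjusted p between the times ranged between 0.00258 and 0.980 over the alternatives.

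Another Egr1 probe set, M18416_at, read 9.06, 8.40 and 9.10 in BMP24h, against 7.20, 7.44 and 7.47 in BMP6h. Control arrays read 7.76, 7.53 and 8.11, so that all 3 conditions were apart, with BMP6h lowest. Its log2 fold changes were -0.43 ± 0.23 at 6 hr (unadjusted p of 0.105), 1.05 ± 0.23 at 24 hr (adjusted p of 0.300) and 1.48 ± 0.23 between the times (unadjusted p of 0.00027, adjusted p of 0.259), the last being the lowest adjusted p of any member in that comparison. The dimmer rc_AI176662_s_at read 6.83, 6.83 and 7.28 in BMP24h, 5.75, 5.29 and 6.25 in BMP6h, and 6.38, 6.24 and 6.03 in control. Here too BMP24h lay apart and BMP6h overlapped control, with log2 fold changes of -0.45, 0.76 and 1.21 (SE 0.26). The last, U75398_s_at, differed little, with log2 fold changes of -0.16, 0.06 and 0.22 (SE 0.12) and no unadjusted p under 0.05. None of the 4 met the definition of a turn, since the step at 6 hr had unadjusted p values between 0.105 and 0.226. In batch 1 alone and in batch 2 alone the 4 probe sets kept the pooled sign in all 3 comparisons.

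Klf10, a zinc finger repressor known as a target of TGF-beta and BMP signaling, was higher at both times in its lead probe set. rc_AI172476_at read 9.09, 8.58 and 9.01 in BMP6h and 8.86, 8.87 and 9.02 in BMP24h, against 8.04, 8.29 and 8.20 in control. Both BMP conditions were above control on every array and overlapped each other. The log2 fold changes were 0.72 ± 0.17 at 6 hr (unadjusted p of 0.00274, adjusted p of 0.887) and 0.74 ± 0.17 at 24 hr (unadjusted p of 0.00223, adjusted p of 0.300). Between the times the difference was 0.03, with a 95% interval of -0.36 to 0.41. BMP6h replicate 2 was the lowest BMP array, and without it the log2 fold change at 6 hr was 0.89. The other Klf10 probe sets passed no threshold. rc_AI071299_at had the sign of the lead but was imprecise, with 0.56 and 0.42 (SE 0.49) and arrays from 5.85 to 7.47. Its 95% interval at 6 hr was -0.57 to 1.70. U88630_at had 0.02 and 0.01 (SE 0.22) with arrays from 5.97 to 6.64.

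Nr4a1, the orphan nuclear receptor also called Nur77, passed no threshold. Its lead probe set U17254_g_at read 7.02, 7.21 and 6.80 in control, 7.03, 6.88 and 6.93 in BMP6h, and 7.06, 7.51 and 6.90 in BMP24h. All conditions overlapped. The log2 fold change was -0.06 at 6 hr, with a 95% interval of -0.50 to 0.38, and 0.15 at 24 hr, with an interval of -0.29 to 0.59. The probe set U17254_at gave -0.03 and 0.09 (SE 0.17).

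**Figure D2:**
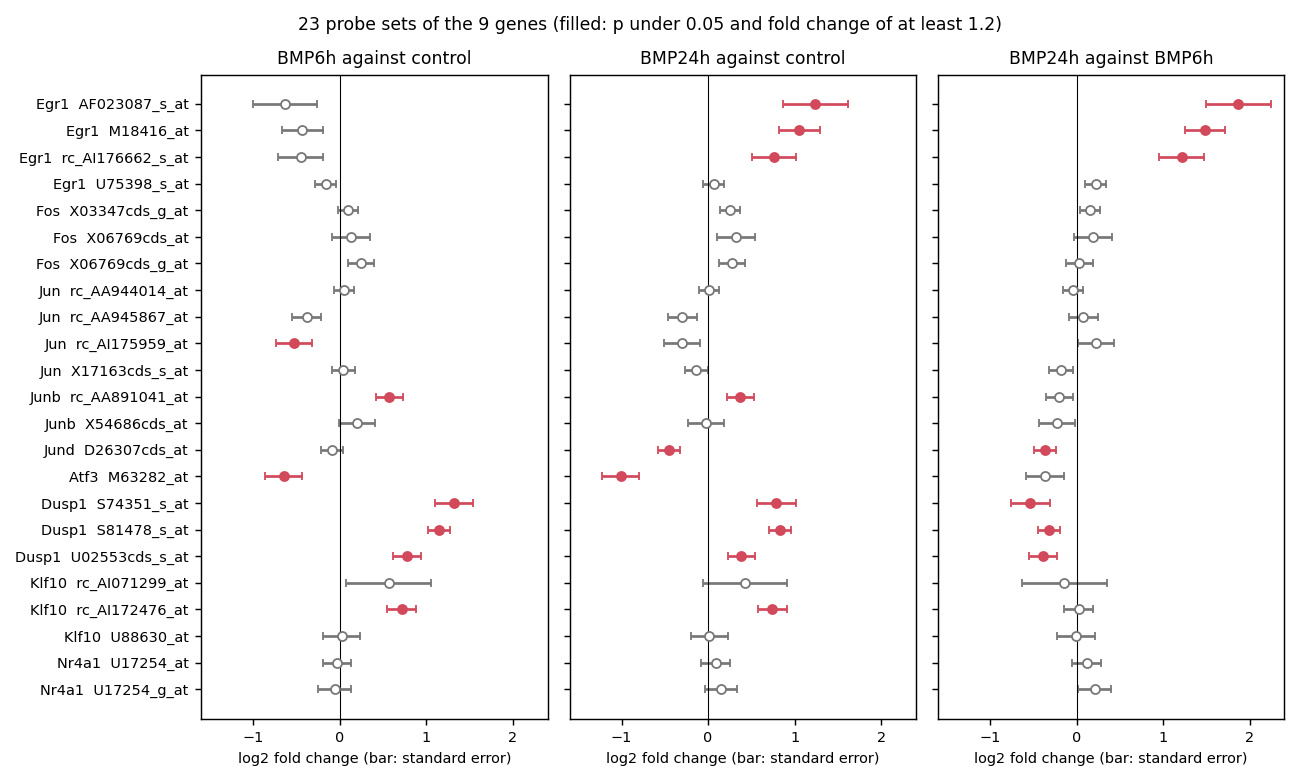
Log2 fold change (horizontal axis, bars are standard errors) of the 23 probe sets for BMP6h over control (left), BMP24h over control (middle) and BMP24h over BMP6h (right). Filled points passed the unadjusted thresholds: 7, 10 and 7 of the 23. The Egr1 probe sets move from left of 0 to right of it, and the Dusp1 probe sets stay right of 0 in both comparisons with control.

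The AP-1 subunits did not move together. Junb, a Jun family member that is a known early target of BMP and TGF-beta, was higher at 6 hr. Its lead probe set rc_AA891041_at read 8.59, 8.68 and 8.28 in BMP6h and 8.29, 8.41 and 8.25 in BMP24h, against 7.90, 7.80 and 8.14 in control. Both BMP conditions lay above control on every array and overlapped each other. The log2 fold changes were 0.57 ± 0.16 at 6 hr (unadjusted p of 0.00685, adjusted p of 0.887), 0.37 ± 0.16 at 24 hr (unadjusted p of 0.0466) and -0.20 ± 0.16 between the times. The other Junb probe set, X54686cds_at, overlapped in all comparisons with 0.20 at 6 hr and -0.03 at 24 hr (SE 0.21), and in batch 2 alone its difference at 6 hr was -0.04.

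Jund, the Jun family member that resting cells express steadily, was lower at 24 hr. D26307cds_at read 7.05, 6.99 and 6.81 in BMP24h and 7.35, 7.31 and 7.28 in BMP6h, against 7.26, 7.54 and 7.40 in control. BMP24h lay below every other array, and BMP6h overlapped control. The log2 fold change was -0.45 ± 0.13 at 24 hr (unadjusted p of 0.00862, adjusted p of 0.655) and -0.36 ± 0.13 between the times (unadjusted p of 0.0234). At 6 hr it was -0.09, with a 95% interval of -0.38 to 0.21. The difference at 24 hr was -0.20 in batch 1 alone and -0.57 in batch 2 alone.

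Jun, which encodes c-Jun, the subunit best known in axon injury, was lower at 6 hr in its lead probe set. rc_AI175959_at read 8.48, 8.00 and 8.45 in BMP6h and 8.50, 8.42 and 8.65 in BMP24h, against 8.68, 8.60 and 9.20 in control. BMP6h did not overlap control, while BMP24h overlapped both. The log2 fold change was -0.52 ± 0.21 at 6 hr (unadjusted p of 0.0368, adjusted p of 0.887) and -0.30 ± 0.21 at 24 hr. It rested in part on control replicate 3, the highest array, and BMP6h replicate 2, the lowest: without the first it was -0.32 and without the second -0.35. rc_AA945867_at had -0.38 and -0.30 (SE 0.17), and its BMP6h arrays lay below control, with an unadjusted p of 0.0540. The last Jun probe sets, rc_AA944014_at and X17163cds_s_at, gave log2 fold changes of 0.05 and 0.04 at the 6 hr point.

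Fos, the partner of Jun proteins in AP-1, passed no threshold, although all 3 of its probe sets had values above 0 at both times. The lead X06769cds_g_at read 8.63, 8.71 and 8.30 in control, 8.82, 8.63 and 8.92 in BMP6h, and 8.71, 8.82 and 8.93 in BMP24h. BMP24h lay just above control without overlap, and BMP6h overlapped it. The log2 fold change was 0.24 at 6 hr, with a 95% interval of -0.11 to 0.60, and 0.28 at 24 hr, with an interval of -0.08 to 0.63. X06769cds_at had 0.13 and 0.32, and X03347cds_g_at had 0.10 and 0.25.

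Atf3, a bZIP factor that pairs with Jun proteins and marks injured neurons, was lower at both times. M63282_at read 7.94, 8.57 and 7.92 in BMP6h and 7.92, 7.94 and 7.48 in BMP24h, against 8.86, 8.68 and 8.84 in control. Both BMP conditions lay below control on every array and overlapped each other. The log2 fold change was -0.65 ± 0.22 at 6 hr (unadjusted p of 0.0180, adjusted p of 0.887) and -1.01 ± 0.22 at 24 hr, which is 2.02-fold lower (unadjusted p of 0.00178, adjusted p of 0.283). The array BMP6h replicate 2 was the closest to control, and without it the log2 fold change at 6 hr was -0.88. Atf3 thus had the largest lower value of any member at 24 hr, in batch 1 alone (-0.94) and in batch 2 alone (-1.05).

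Fibroblast and matrix markers moved alongside the lower values at 24 hr. The mean log2 level of their 13 measured genes was 9.63 to 9.82 in BMP24h, against 9.88 to 10.09 in control, with no overlap. At the unadjusted thresholds 4 of the 13 were lower (Dcn, Lum, Vim and Mgp) and 0 were higher, beside 1.74% lower and 1.6% higher over all probe sets. Mgp alone averaged 11.59 in BMP24h and 12.07 in control. The lowest value of any probe set on any array was 2.69, so a marker value above 0 does not show that a cell type was present. The mean of 12 neuron markers was 10.87 to 11.25 in BMP24h, against 11.08 to 11.13 in control, and that of 11 satellite glia and Schwann cell markers was 7.70 to 7.87 against 7.71 to 7.76. Endothelial and mural markers (8 genes) ran between 6.81 and 6.94 in BMP24h, against 6.95 and 7.23 in control, without overlap. Macrophage and blood cell markers (8 genes) ran between 6.81 and 6.87 in BMP24h, against 6.86 and 6.92 in control. By the unadjusted thresholds 1 of the 12 neuron markers and 1 of the 8 endothelial and mural markers were lower, and 0 were higher. In the glia list and the macrophage list 0 passed. The part of these cell types in the Jund and Atf3 values was not tested.

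At 6 hr the neuron and glia lists lay apart from control by under 0.1 log2 units in the mean. The neuron markers averaged 11.16 to 11.21 in BMP6h, against 11.08 to 11.13 in control, and the glia markers 7.69 in each BMP6h array, against 7.71 to 7.76 in control, both without overlap. The fibroblast list was 9.94 to 10.05 in BMP6h, within the control range. Endothelial and mural markers averaged 6.78 to 6.98 in BMP6h, against 6.95 to 7.23 in control, and macrophage and blood cell markers 6.88 to 6.99 against 6.86 to 6.92, with overlap in both. At the unadjusted thresholds Col1a1 was higher, and Dcn and Kdr lower, among these markers. Their part in the 6 hr values of the 9 genes was not tested.

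Genes around the 9 in the same pathways were counted in 6 lists, with 1 probe set per gene, its brightest, and no gene had an adjusted p under 0.05 in any comparison. Of their 74 genes measured, 4 passed the unadjusted thresholds at 6 hr, 5 at 24 hr and 6 between the times. These are 5.41%, 6.76% and 8.11%, beside 1.79%, 3.82% and 3.21% of the 4736 named genes. Among 12 of 21 further AP-1 and related bZIP genes on the array, none passed the unadjusted thresholds in any comparison. The median of these 12 was 0.03 at 6 hr and -0.06 at 24 hr, beside -0.03 and 0.01 over all named genes. Among 13 of 20 other immediate early transcription factors, Klf9 was higher and Klf6 lower at 6 hr, and none passed at 24 hr. Klf9, a zinc finger factor induced by steroid and thyroid hormones, read 7.20, 7.77 and 7.13 in BMP6h, against 6.51, 6.79 and 6.09 in control. It was 0.90 ± 0.23 higher on the log2 scale at 6 hr and -0.78 between the times, so that at 24 hr it was 0.12 from control. Klf6, a related factor known in axon regeneration of zebrafish, was -0.46 ± 0.13 at 6 hr.

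Among 17 of 27 immediate early effector genes, Gadd45a, a stress gene of growth arrest and DNA repair, was -0.52 at 6 hr and -0.47 at 24 hr. Vgf, a secreted neuropeptide precursor, was -0.42 at 24 hr. Among 6 of 15 further MAP kinase phosphatases, none passed at 6 hr. At 24 hr Ptpn5, a brain-enriched tyrosine phosphatase that acts on ERK and p38, was 0.94 ± 0.24 and Ptprr, a receptor-type phosphatase that binds ERK, was -0.85 ± 0.14. Dusp4, Dusp5, Dusp6 and Dusp7, relatives of Dusp1, had 0.10, -0.30, 0.10 and -0.04 at 24 hr and passed no threshold. Among 14 of 32 upstream kinases and ternary complex factors, Map3k1, a kinase upstream of JNK, was 0.64 ± 0.16 at 6 hr and -0.67 ± 0.16 between the times. Mapk14, which encodes p38 alpha, was -0.30 between the times. Among 12 of 16 neuron injury genes, which in part the axon injury literature pairs with Atf3 and Jun, Adcyap1 (the precursor of the neuropeptide PACAP) was -0.95 ± 0.17 at 24 hr. Hspb1, a small heat shock protein, was -0.40 between the times. At 24 hr 10 of these 12 had a value below 0, with a median of -0.21 beside 0.01 over all named genes. At 6 hr too 10 of the 12 were below 0, with a median of -0.05 beside -0.03.

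**Figure D3:**
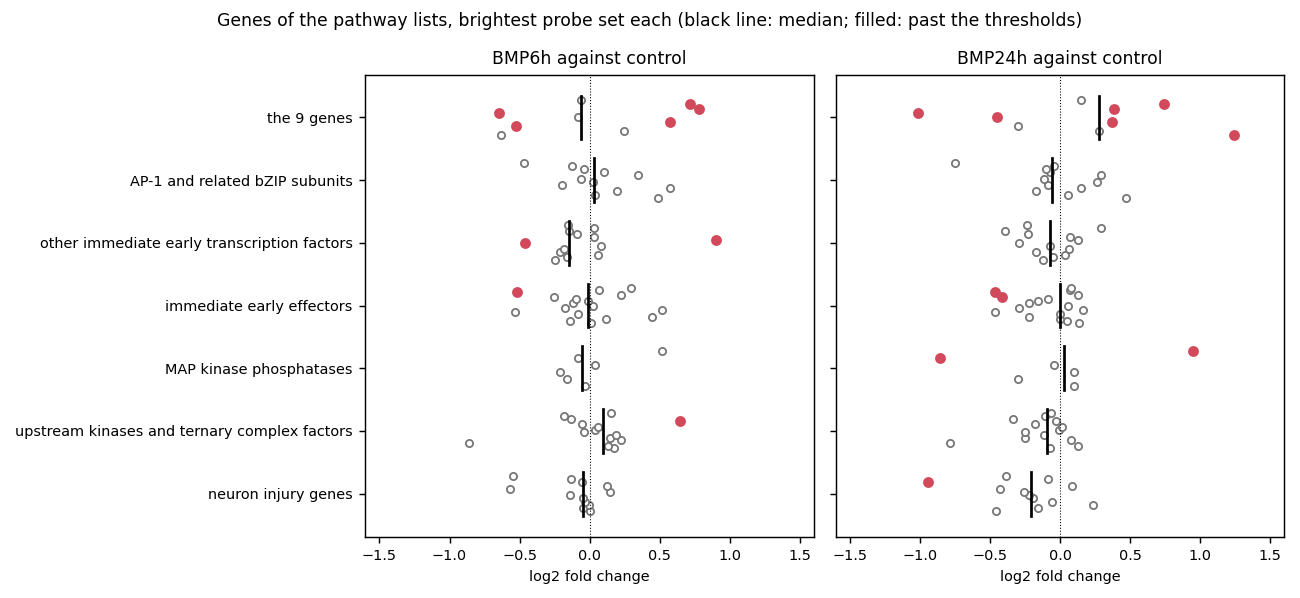
Log2 fold change (horizontal axis) in BMP6h against control and BMP24h against control of each gene of the 9 and of 6 lists around them, 1 probe set per gene; filled points passed the unadjusted thresholds and black lines are medians. The medians of the 6 lists lie between -0.15 and 0.10 at 6 hr and between -0.21 and 0.03 at 24 hr, while single genes such as Klf9, Ptpn5, Ptprr and Adcyap1 stand out.

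The named genes whose values were most alike over the 9 arrays were listed for each member with an unadjusted F-test p under 0.05. The measure was Pearson's r over 9 arrays that share their conditions, normalization and batch removal, and it is given as a description. Dusp1 (S81478_s_at) was most like Id2 (r = 0.98), Id3 (0.94) and Klf10 (0.93). The Id genes encode inhibitors of bHLH transcription factors and are textbook BMP targets. Id2 was 2.43 above control on the log2 scale at 6 hr and 1.98 above it at 24 hr, and Id3 was 1.45 and 1.51 above it. Klf10 was most like Id3 (0.95), Unc5b (0.95) and Dusp1 (0.93). Egr1 (M18416_at) was most like Ssr3 (0.95), Npy (0.94) and Acly (0.94), whose changes were at most 0.24 at 24 hr against control. Junb was most like Sema4b (0.92), Hs6st1 (0.91) and Adra2a (0.91), and Jund was most like Loxl1 (0.94), Drd2 (0.94) and Itm2b (0.94). Atf3 was most like Anapc16 (0.98), Aldh3a2 (0.93) and Dad1 (0.90), each with values between -0.16 and -0.24 at 24 hr.

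**Figure D4:**
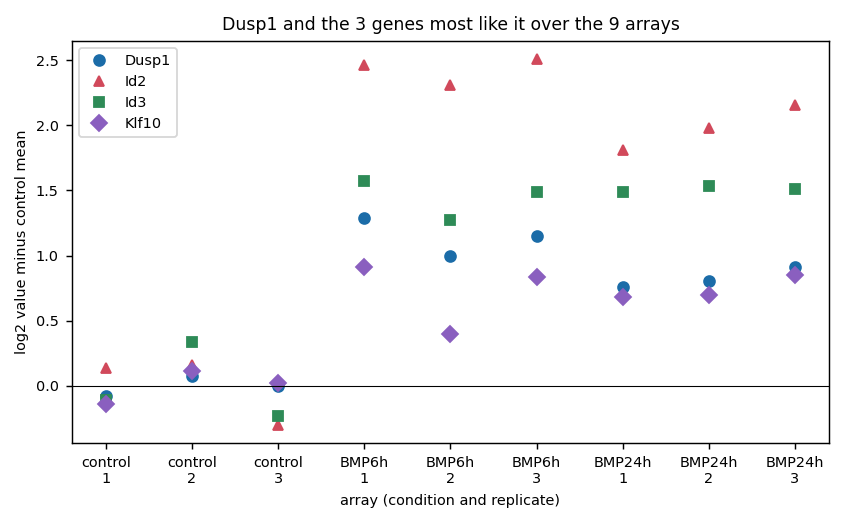
Log2 value minus the mean of the control arrays (vertical axis) for Dusp1 (S81478_s_at), Id2, Id3 and Klf10 on each of the 9 arrays (horizontal axis). For all 4 genes every BMP6h and BMP24h array lies above every control array, and Dusp1 and Id2 are lower in every BMP24h array than in every BMP6h array.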

How the data were processed

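RNA of 9 pooled neuron samples was hybridized to Rat Genome U34A arrays. The authors deposited log2 values, made from the scanner files by RMA in Partek with its batch removal step, which took out the difference between 2 processing batches (3 and 6 arrays, with different amounts of cRNA). For no probe set did the batch means differ by more than 6.67e-05, and 0 pairs of arrays were identical. Arrays carry no read depth; their number limits the precision. The files used here hold no detection calls.

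Of 8799 probe sets, 59 array controls were dropped. In the platform annotation 7006 of the other 8740 name 1 gene, 308 several and 1426 none. The fit used limma 3.58.1 (R 4.3.3) with terms for condition and batch, leaving 5 residual and 2.68 prior degrees of freedom, which is the study's two-way analysis with a moderated variance. P-values were adjusted by Benjamini and Hochberg over all 8740. The unadjusted thresholds (p under 0.05 and at least 1.2-fold, and for the F-test p under 0.005) follow the Methods. The fit was tested on simulated data.

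All 23 probe sets were accounted for, each gene at its lead probe set first, with values per array for leads and for probe sets past the unadjusted thresholds. The members, lists and tests were chosen with earlier results of these data known. From each pathway list the genes past the unadjusted thresholds were named, and Dusp4 to Dusp7 besides. From the marker lists only some of the genes past these thresholds were named. Replicates are separate dissections per the labels. Each dissection supplied every condition per the methods, but no label ties a replicate number to a dissection. Alternatives were the ordinary analysis of variance, no batch term, the replicate block, batch 2 alone, no dim probe sets, repeated quantile normalization, centring on the median, only the 2 compared groups, a prior variance with an intensity trend, array weights, a fold minimum of 1.5, gene means, and leaving out each array. Promoters came from RefSeq (GRCr8).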

Additional observations from a re-analysis of the deposited data

Results flagged for a closer look

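For 3 of the 4 Egr1 probe sets, every BMP6h array lay below the control mean and every BMP24h array above it. Their estimated differences from control thus had opposite signs at the times. At 6 hr none had an unadjusted limma p under 0.05 (0.132 for AF023087_s_at, 0.105 for M18416_at and 0.226 for U75398_s_at). At 24 hr U75398_s_at was 0.06 above control on the log2 scale (unadjusted p of 0.616). None of the 3 met the definition of a turn. The log2 difference of BMP24h minus BMP6h was 1.87 for AF023087_s_at, 1.48 for M18416_at and 0.22 for U75398_s_at. The difference itself was tested with limma and did not pass, with adjusted p values of 0.414, 0.259 and 0.939. With the replicate number as a block, AF023087_s_at passed between the times (adjusted p of 0.0317) and at 24 hr against control (0.0486). Subtracting the same-numbered control array from each BMP array gave -0.67, -0.89 and -0.33 for BMP6h. The BMP24h arrays gave 1.35, 0.86 and 1.51. Both differences from control share the 3 control arrays.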

How the results depend on the processing

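At the unadjusted thresholds 7 member probe sets differed at 6 hr, 10 at 24 hr and 7 between the times. At 6 hr the count was 3 in batch 2 alone and 11 with array weights. Between the times it was 3 in batch 2 alone, 4 with the 2 compared groups alone and 3 with a fold change minimum of 1.5. Leaving out each array in turn gave between 3 and 7 (3 without BMP6h replicate 1, and 4 without control replicate 1 or 2 or any one BMP24h array). Where this left 1 array of a condition in batch 2, limma's pooled spread was used. The count at 24 hr stayed within 1.5 times its value.

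The Dusp1 call at 6 hr (S81478_s_at) was lost in the ordinary analysis of variance (adjusted p of 0.310), batch 2 alone (0.971), after median centring (0.0556), with the 2 compared groups alone (0.777) and without any one array except BMP6h replicate 2 (0.150 to 0.432), and its log2 fold change was 1.03 to 1.24 throughout. At 24 hr it passed with no batch term (0.0186), without dim probe sets (0.0122), with an intensity trend (0.0421) and without BMP6h replicate 2 (0.0347). Array weights, which ranged from 0.093 (BMP6h replicate 2) to 5.76 (BMP24h replicate 1), called 7, 8 and 4 member probe sets. Over all probe sets, calls at an adjusted p under 0.05 in the 3 comparisons were 4, 19 and 0, 29, 280 and 198 with array weights, and 0 to 10, 0 to 42 and 0 to 10 in the other fits with all arrays or batch 2 alone. Without any one array they were 0 to 3, 0 to 26 and 0, at unadjusted counts of 67 to 609, 188 to 511 and 144 to 724.

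The replicate number fitted as a replicate block gave 9, 9 and 7 member probe sets. It took the Dusp1 call at 6 hr to an adjusted p of 0.0835 and the Egr1 lead to 0.0486 at 24 hr and 0.0317 between the times. The authors' batch removal leaves the deviations of the replicate 1 arrays dependent on each other, so the check used the difference of replicates 2 and 3 alone. It correlated by 0.05 between control and BMP6h, 0.02 between control and BMP24h and 0.40 between BMP6h and BMP24h. The number was not taken to pair the arrays, since these were not all over 0.1 and the labels do not tie a number to a dissection.

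Of 654 member values under alternatives, 613 kept their direction and side of the threshold, 19 newly passed it and 13 lost it. A further 9 changed sign, all of differences under 0.2. Of the 33 results followed, only Dusp1 (S81478_s_at) at 6 hr passed the adjusted threshold in the main fit, so no other result could lose it. That result passed in 6 of its 19 alternatives, so the 613 are no measure of its stability. Fos (lead) between the times was -0.089 with array weights and -0.055 to 0.11 without any one array. Klf10 (lead) between the times was -0.15 with array weights, -0.040 as a gene mean and -0.15 to 0.17 without any one array. Nr4a1 (lead) without any one array was -0.17 to 0.048 at 6 hr and -0.044 to 0.29 at 24 hr. The causes were not tested.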
